A study of Oryza sativa with 8 samples.

Results

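Salicylate (salicylic acid) is a phenolic defence hormone of plants. Here 5 rice genes listed for its synthesis or signalling were followed through the stems of a susceptible and a tolerant line. The lines come from a study of the yellow stem borer. The genes were chosen by their identifiers in the MSU rice gene models and are NPR1 (called NH1 in rice), NH2, PAD4, EDS1 and isochorismate synthase (ICS below). All 5 were among the 55986 gene models in the count tables, and all 5 passed the filter on low counts among 24892 genes that did.

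The labels describe field-grown rice plants of the lines SM, susceptible to the borer, and SM92, tolerant to it. Larvae were placed by hand on tillers at the booting stage, and stem pieces around the feeding site were taken 72 hours later, with uninfested plants sampled alongside. The labels list 4 groups of 2 samples, with and without larvae for each of the lines, and give no further alleles, agents or pooling. Each sample's description names the count table of its line, so the line of every library was known. The headings of the count columns match no label that gives infestation or replicate. The comparison was therefore SM92 against SM over 4 libraries each, with infested and uninfested plants together in each line. Libraries are numbered 1 to 4 within a line in the order of the tables, and these numbers are names, not replicate numbers. The response of the genes to the larvae was not analysed here, and a difference between the lines cannot be told apart from a different response in them.

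In Arabidopsis, most salicylate made during defence comes from chorismate through isochorismate synthase, while a second route starts from phenylalanine by way of phenylalanine ammonia-lyase. EDS1 and PAD4 are lipase-like proteins that pair with each other and, in Arabidopsis, promote salicylate accumulation after a pathogen is sensed. NPR1 is a transcriptional co-regulator that acts with TGA factors on salicylate-responsive genes, and rice NH1 and NH2 are its relatives. Rice leaves hold a high basal level of salicylate.

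The 8 libraries held 50540724 to 57603629 counted fragments. Library pairs differed in how alike they were. SM libraries 3 and 4, SM92 libraries 1 and 2 and SM92 libraries 3 and 4 were nearly identical, with a chi-square per degree of freedom of 1.62 to 3.13 between their counts, where counting noise alone gives about 1. SM libraries 1 and 2 had 96.3. Pairs within a line that joined library 1 or 2 to library 3 or 4 had 255 to 344. In both lines libraries 1 and 2, and libraries 3 and 4, were thus the most alike. Whether such a pair was 1 of the labelled groups of 2 samples cannot be told from the labels. The 3 close pairs still differed by more than counting noise, so they were kept as separate libraries, but the spread they add may be technical, and p-values over 4 libraries a line then come out too small. A fit with each close pair summed to 1 library, 3 against 2, is given beside the results it changes. Nothing in the labels says that the libraries of a line came from separate plants.

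Tissue markers, listed from general knowledge of rice genes and not named in the tables, also differed among libraries. The 4 loci listed for secondary walls of the stem were detected in every library, with summed levels of 306 to 1050 CPM (counts-per-million units, total counts) in SM and 89.4 to 226 CPM in SM92, and all 4 were lower in SM92. Of 5 loci listed for floral organs, all 5 were above 1 CPM in SM libraries 3 and 4, while 4 were under 1 CPM in SM libraries 1 and 2 and 3 were under 1 CPM in every SM92 library; the summed level of the list was 128 to 143 CPM in SM and 69.1 to 78.2 CPM in SM92. In SM library 1, 1 floral locus was at 0. The floral list did not go 1 way. Scaled by the trimmed mean of M-values (TMM), LOC_Os06g49840 stood at 120 and 131 CPM in SM libraries 1 and 2. It stood at 78.8 and 76.7 CPM in SM libraries 3 and 4. LOC_Os01g10504 was at 9.14 and 8.71 CPM in SM libraries 3 and 4 and at 10.7 CPM in SM92 libraries 1 and 2. The 3 green tissue loci summed to 803 to 1230 CPM in SM and 1080 to 1930 CPM in SM92, but went different ways: 1 was called higher in SM92 (log2 difference 2.19), 1 lower (-0.63), and 1 was not called. Of all genes tested, 16.7% were called higher and 19.7% lower in SM92 (edgeR adjusted p under 0.05). The locus listed for root silicon uptake stood at 1.48 to 12.8 CPM in SM and 13.7 to 42.8 CPM in SM92. The part of tissue make-up in the results below was not tested, and in whole stem pieces fewer cells of a type and less RNA per cell cannot be told apart.

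**Figure D1:**
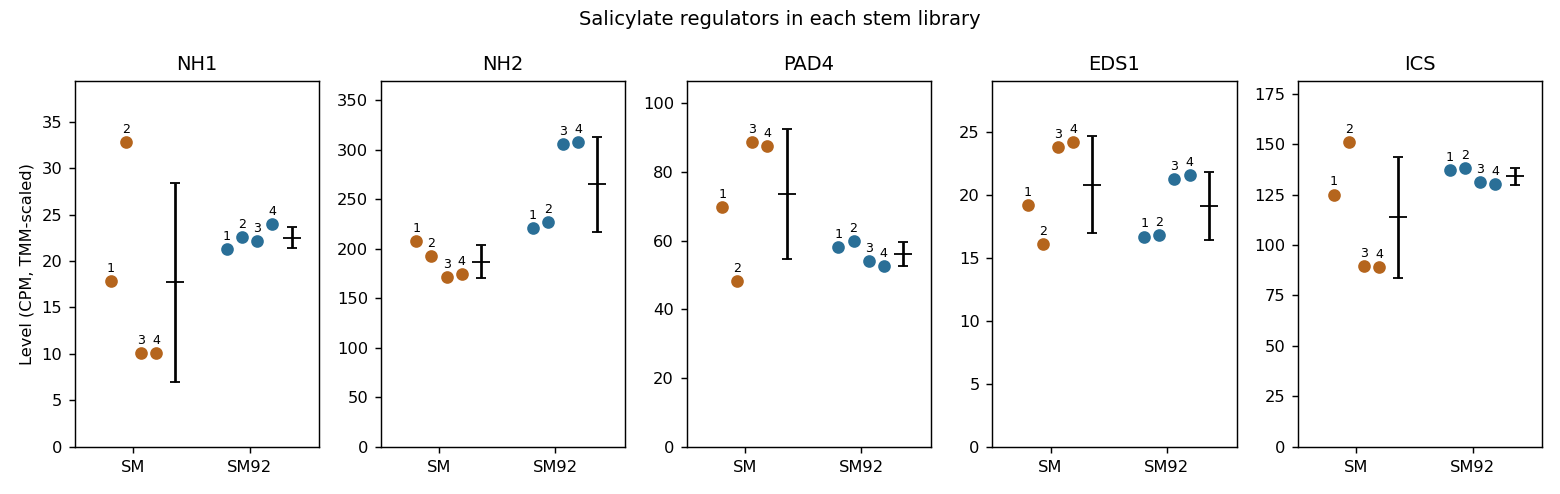
Level of each gene in counts-per-million (CPM) scaled by the trimmed mean of M-values (TMM), 1 panel per gene with its own axis from 0. Each numbered point is a library of SM (brown) or SM92 (blue), and the black bar is the mean ± SD over the 4 libraries of a line; NH2 is the gene whose points do not overlap between the lines.

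Among the 5 genes, NH2 differed between the lines in the fit over 8 libraries and was higher in SM92. NH1, PAD4, EDS1 and ICS did not pass the test. For each of these 4 genes the range of levels among SM libraries took in all 4 SM92 libraries. The background was a strong difference between the lines: 9067 of 24892 genes tested, or 36.4%, had an adjusted p under 0.05 (edgeR quasi-likelihood test, Benjamini-Hochberg adjustment over all genes tested), 16.7% higher and 19.7% lower in SM92. The count of 1 in 5 among the salicylate regulators does not stand above that share. The median size of the log2 difference was 0.35 over the 5 genes and 0.51 over all genes tested. With each close pair summed, 2591 of 27531 genes tested were called, or 9.41%, and 0 of the 5 regulators was among them. Against that share, 0 of 5 is no result about the regulators. In that fit 0 of the 5 had an unadjusted edgeR p under 0.05, and no other tool was run on it.

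Levels of single genes below are CPM scaled with TMM factors. The synthesis step comes first. ICS (LOC_Os09g19734), which turns chorismate into isochorismate, is annotated at chr9:11805571-11815328 on the plus strand of the MSU release 7 models, a span of 9758 bases. Its level was 125, 151, 89.5 and 89.2 CPM in SM libraries 1 to 4 and 137, 138, 131 and 130 CPM in SM92 libraries 1 to 4. SM library 2 was the highest of all 8, SM libraries 3 and 4 were the lowest, and the SM92 libraries lay close together inside the SM range. The means were 114 ± 30 CPM in SM and 134 ± 4.12 CPM in SM92 (SD, n = 4 libraries each). The log2 difference, SM92 minus SM, was 0.24 with a standard error of 0.18 and a 95% interval from -0.18 to 0.65, and the edgeR adjusted p was 0.341. On the fold scale the interval ran from 0.884 to 1.57. In SM the highest library was 1.69 times the lowest, and in SM92 1.06 times. Without SM library 2 the log2 difference was 0.40 and the edgeR adjusted p 0.0628, still above the threshold. Without SM libraries 3 and 4, in which every listed floral locus was above 1 CPM, the log2 difference was -0.049. Which infestation states remain in SM in that fit is not known.

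EDS1 (LOC_Os09g22450) lies at chr9:13559548-13563071 on the plus strand. It stood at 19.2, 16.1, 23.8 and 24.2 CPM in SM libraries 1 to 4 and at 16.7, 16.8, 21.3 and 21.6 CPM in SM92 libraries 1 to 4. In both lines libraries 3 and 4 were above libraries 1 and 2, and the lines overlapped. The log2 difference was -0.12 ± 0.17 (standard error) with a 95% interval from -0.51 to 0.26 and an edgeR adjusted p of 0.600. On the fold scale the interval ran from 0.702 to 1.2. Without SM libraries 3 and 4 the log2 difference was 0.11.

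PAD4 (LOC_Os11g09010), the partner of EDS1, lies at chr11:4785128-4789394 on the plus strand. Its level was 69.8, 48.4, 88.7 and 87.4 CPM in SM libraries 1 to 4 and 58.2, 59.9, 54 and 52.6 CPM in SM92 libraries 1 to 4. SM libraries 1, 3 and 4 were above every SM92 library, and SM library 2 was below every one of them. The means were 73.6 ± 18.9 CPM in SM and 56.2 ± 3.47 CPM in SM92 (SD, n = 4 libraries each). The log2 difference was -0.39 ± 0.19 (standard error), with a 95% interval from -0.82 to 0.046 and an edgeR adjusted p of 0.145. The value turned on SM library 2: without it the log2 difference was -0.55 and the edgeR adjusted p 0.00935, and without SM libraries 3 and 4 the log2 difference was -0.078.

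Set against each other within a library, per kilobase of gene span, PAD4 was 3.01, 2.49, 3.08 and 2.98 times EDS1 in SM libraries 1 to 4. In SM92 libraries 1 to 4 it was 2.88, 2.95, 2.09 and 2.01 times EDS1. Such a ratio does not depend on how libraries are scaled. It was nearly level across 5 of the libraries and lower in SM library 2 and in SM92 libraries 3 and 4. The lower ratio in SM92 libraries 3 and 4 came with EDS1 above its level in SM92 libraries 1 and 2 and PAD4 below.

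The co-regulators follow. NH1 (LOC_Os01g09800), a rice relative of Arabidopsis NPR1, lies at chr1:5060416-5065236 on the minus strand. Its counts in SM libraries 1 to 4 were 1011, 1949, 612 and 574, or 17.8, 32.8, 10.1 and 10.1 CPM. In SM92 libraries 1 to 4 the counts were 1124, 1212, 990 and 1082, or 21.3, 22.6, 22.2 and 24.0 CPM. SM library 2 was the highest of the 8 and SM libraries 1, 3 and 4 the lowest, with the SM92 libraries between them.

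For NH1, the 95% exact Poisson interval of the lowest count, 574, ran from 528 to 623, which covers counting error only. The highest SM library was 3.24 times the lowest, and in SM92 the ratio was 1.13. For the comparison with other genes, 1 CPM was added to every level, which shrinks the ratios of genes of low abundance most. On that scale the NH1 range was wider than that of 92.8% of genes tested in SM and 18.9% in SM92. The median ratio over all genes tested, also with 1 CPM added, was 1.43 in SM and 1.28 in SM92. Whether the spread of NH1 differed between the lines was not tested. The mean levels were 17.7 ± 10.7 CPM in SM and 22.6 ± 1.11 CPM in SM92 (SD, n = 4 libraries each). The log2 difference was 0.35 ± 0.37 (standard error), with a 95% interval from -0.50 to 1.2 and an edgeR adjusted p of 0.496. Without SM library 2 the log2 difference was 0.83 with an edgeR adjusted p of 0.0235, and without SM libraries 3 and 4 it was -0.17.

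NH2 (LOC_Os01g56200), the relative of NH1, lies at chr1:32367683-32371816 on the plus strand. Its counts in SM libraries 1 to 4 were 11835, 11476, 10394 and 9916, or 208, 193, 172 and 175 CPM. In SM92 libraries 1 to 4 they were 11623, 12141, 13614 and 13856, or 221, 227, 306 and 308 CPM. Every SM92 library was above every SM library, and SM92 libraries 3 and 4 stood well above SM92 libraries 1 and 2. Libraries of the lines did not overlap for 40.6% of all genes tested, and for 19.4% every SM92 library was above every SM library.

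The means of NH2 were 187 ± 16.9 CPM in SM and 265 ± 48.0 CPM in SM92 (SD, n = 4 libraries each). The log2 difference was 0.50 ± 0.15 (standard error), a 1.42-fold higher level in SM92 with a 95% interval from 1.11 to 1.80-fold, and the edgeR adjusted p was 0.0321. An exact two-sided permutation test on log2(CPM + 1) gave p = 0.0286, the smallest p that 4 against 4 libraries allow; it treats the near-identical libraries as independent. With each close pair summed to 1 library the log2 difference was 0.48 and the edgeR adjusted p 0.249, and without SM libraries 3 and 4 they were 0.40 and 0.168. Leaving out SM library 3 or 4 or SM92 library 3 or 4 also ended the call, with edgeR adjusted p between 0.0814 and 0.0865, as did testing without the filter on low counts, at 0.0527. With libraries scaled by total counts alone the log2 difference was 0.32 and the edgeR adjusted p 0.0704. That scaling moved the median log2 difference of all genes tested from 0.0029 to -0.16, and relative to this median NH2 was higher by 0.48 against 0.50. It also moved the split of called genes from 45.8% higher and 54.2% lower in SM92 to 32.1% higher and 67.9% lower.

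**Figure D2:**
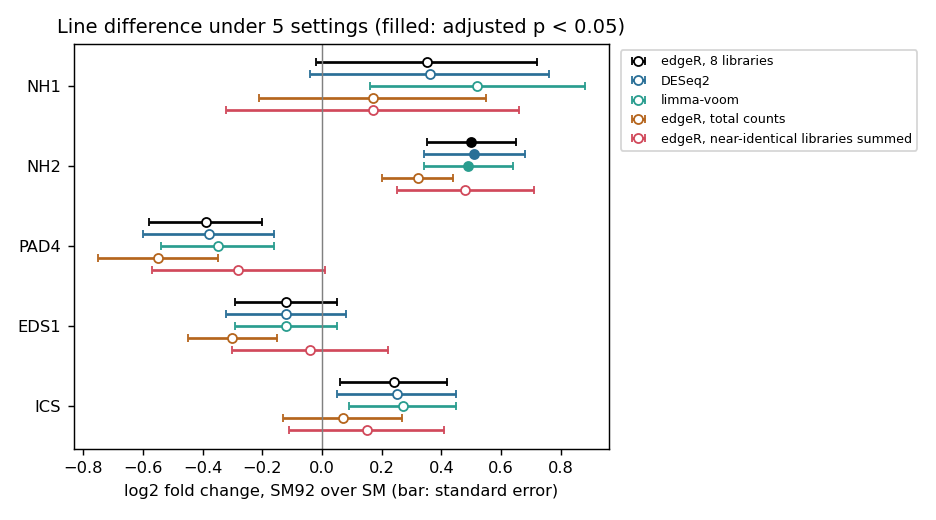
Log2 fold change of each gene, SM92 over SM, with its standard error under 5 settings; filled points have an adjusted p under 0.05. NH2 is above 0 under all 5 settings, at 0.32 to 0.51, and is filled under 3 of them, while the other genes have no filled point.

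The exact permutation test on the other genes gave p = 0.314 for NH1, 0.171 for PAD4, 0.543 for EDS1 and 0.314 for ICS, so 1 of the 5 unadjusted values was under 0.05. With 4 against 4 libraries this test gives a p under 0.05 only where the lines do not overlap, as for 40.6% of all genes tested. For NH2 it therefore restates the lack of overlap and adds no separate evidence. The 4 genes that missed the threshold are not thereby shown to be equal between the lines. The 95% interval for NH1 ran from 0.706-fold to 2.29-fold and that for PAD4 from 0.565-fold to 1.03-fold, wide enough to hold differences as large as that of NH2.

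Levels of different genes were compared per kilobase of gene span, introns included, since the authors counted fragments over whole gene models. NH2 was the most abundant of the 5, at 41.6 to 74.4 CPM per kilobase over the 8 libraries, above 95.1% to 96.9% of genes tested. PAD4 followed at 11.3 to 20.8 and ICS at 9.15 to 15.4, and these neighbours in the order changed places: PAD4 was above ICS in 3 of 4 SM libraries, and ICS was above PAD4 in 4 of 4 SM92 libraries. EDS1 stood at 4.56 to 6.86 and NH1 at 2.10 to 6.81, with EDS1 above NH1 in 7 of 8 libraries and below it in SM library 2. These 2 orders rest on the division by span, which is 9758 bases for ICS and 4267 for PAD4. In CPM, ICS at 89.2 to 151 was above PAD4 at 48.4 to 88.7 in every library. NH1 was above EDS1 in CPM in every SM92 library. NH2 was the highest of the 5 in CPM as well. The NH2 level was 13.7, 6.87, 19.8 and 20.1 times that of NH1 in SM libraries 1 to 4. In SM92 libraries 1 to 4 it was 12.1, 11.7, 16.0 and 14.9 times that of NH1. NH2 was thus the more abundant of this pair in every library, and the ratio varied more in SM, where SM library 2 was the lowest of the 8 and SM libraries 3 and 4 the highest.

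**Figure D3:**
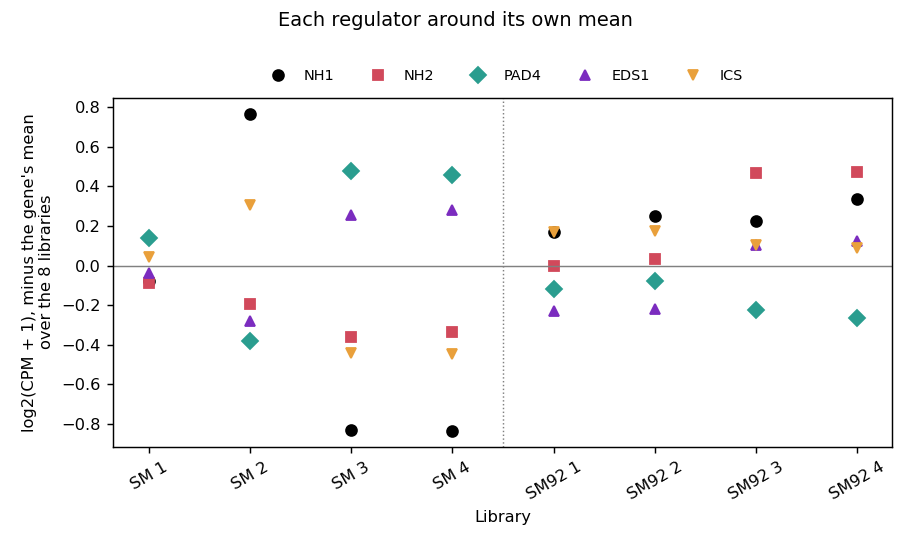
Level of each gene in each library as log2(CPM + 1) minus that gene's mean over the 8 libraries; the dotted line separates SM from SM92. In SM libraries 3 and 4 PAD4 and EDS1 are above their means and NH1, ICS and NH2 below, and in SM library 2 NH1 and ICS are above and PAD4 and EDS1 below.

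The plot of centred levels showed how the genes varied among themselves. In SM libraries 3 and 4, PAD4 was 0.478 and 0.457 above its own mean and EDS1 0.258 and 0.281 above. NH1 was at -0.834 and -0.836 and ICS at -0.441 and -0.445 in the same libraries. SM library 2 had the reverse order, with NH1 at 0.768 and ICS at 0.305 while PAD4 was at -0.382 and EDS1 at -0.280. In these 3 SM libraries PAD4 and EDS1 thus lay on the other side of their means from NH1 and ICS. In SM92, NH1 ranged from 0.170 to 0.334, ICS from 0.090 to 0.176, PAD4 from -0.265 to -0.079 and EDS1 from -0.228 to 0.126, each over a narrower range than in SM. NH2 had the wider range in SM92, from -0.002 to 0.475, against -0.359 to -0.086 in SM, and its highest library was 1.39 times its lowest in SM92 and 1.21 times in SM.

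The distance between profiles was measured on another log2 scale than the plot, edgeR's log2 CPM with a prior count of 2, as the mean absolute difference over the 8 libraries after each gene was centred on its mean. It was 0.209 between PAD4 and EDS1, 0.236 between NH2 and ICS and 0.250 between NH1 and ICS. The largest distance was 0.736, between NH1 and PAD4. From NH1 the median distance to all genes tested was 0.600, from PAD4 it was 0.489 and from NH2 0.468. The 8 points share 4 libraries of each line and 3 close pairs, so these distances describe the libraries and carry no test.

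By the same distance over all genes tested, the locus nearest to NH2 was LOC_Os09g22500, at 0.027, and the one nearest to ICS was LOC_Os08g45010, at 0.029. LOC_Os01g64560 was nearest to EDS1 at 0.032, and LOC_Os10g21910 was nearest to PAD4 at 0.054. The nearest to NH1 was LOC_Os08g42080, at 0.106, a locus of low abundance with levels from 0.229 to 0.774 CPM. None of these loci carries a gene name in the tables. NH1 thus had the largest distance to its nearest locus of the 5 genes. The distance is not scaled to a gene's own spread, and NH1 had the widest range of the 5 in SM.

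Other loci of the salicylate pathway were counted from a list of 29 drawn from general knowledge of rice genes. The tables and the RefSeq gene table pair none of these loci with a name, so the list names say only why a locus was included. All 29 were in the tables and 25 were tested. Of these, 3 were called higher and 2 lower in SM92 and 20 were not called, with a median log2 difference of 0.20. The share called is below the 36.4% of all genes tested. That 36.4% is also the background of each list below, and the lists are too small for their counts to be set apart from it. Leaving out 1 library at a time gave 1 to 5 called. Summing the close pairs left 1 of 26 tested, where 9.41% of all genes tested were called.

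The 4 loci listed as other NPR1-like co-regulators were all tested and 0 were called by edgeR, DESeq2 or limma, nor had any an unadjusted p under 0.05 in these tools; the median log2 difference was 0.43. Of 4 listed as NPR1 partners and regulators, such as TGA factors, LOC_Os02g51180 was lower in SM92, at 74.2 to 86.5 CPM in SM and 66.0 to 71.7 CPM in SM92, with a log2 difference of -0.26 and an edgeR adjusted p of 0.0431. Of 4 listed as chaperones and negative regulators of resistance, LOC_Os02g33180 was lower in SM92, with a log2 difference of -0.38 and an edgeR adjusted p of 0.0333. Both calls were lost when the close pairs were summed (edgeR adjusted p of 0.427 and 0.380).

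Of 4 loci listed as salicylate-responsive WRKY factors, 2 were called, both higher in SM92, where 36.4% of all genes tested were called. The identifiers of the 2 called loci are next to each other in number, so the 2 calls may not be independent. The 2 that were not called had log2 differences of -0.096 and 0.20. LOC_Os09g25060 stood at 15.8, 15.4, 11.9 and 14.8 CPM in SM libraries 1 to 4 and at 77.7, 67.8, 80.6 and 86.8 CPM in SM92 libraries 1 to 4. The lines were far apart, by 2.43 on the log2 scale with a standard error of 0.13 and an edgeR adjusted p of 1.04e-05. This locus stayed called in 15 of 15 alternatives, including the summed pairs at an edgeR adjusted p of 0.00383. LOC_Os09g25070 stood at 0.457 to 3.06 CPM in SM, at 3.21 and 3.56 CPM in SM92 libraries 1 and 2 and at 26.1 and 26.6 CPM in SM92 libraries 3 and 4. Its log2 difference of 2.72, with an edgeR adjusted p of 0.0447, rested on SM92 libraries 3 and 4, and the call held in 5 of 15 alternatives; with the close pairs summed the edgeR adjusted p was 0.171.

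The phenylalanine route was represented by 9 loci listed as phenylalanine ammonia-lyases. Of these, 7 were tested and 1 was called, where 36.4% of all genes tested were called. The called locus was higher in SM92 by 0.78 on the log2 scale, with an edgeR adjusted p of 0.0187 and 0.138 with the close pairs summed. The log2 difference was above 0 for 4 of the 7 tested loci and below 0 for the other 3, at -0.32, -1.01 and -1.30, none of which was called. The list summed to 2820 to 5220 CPM in SM and 3110 to 9550 CPM in SM92, and its upper end in SM92 came mostly from LOC_Os02g41630, at 7860 and 7930 CPM (TMM-scaled) in SM92 libraries 3 and 4 against 1760 and 1690 CPM in SM92 libraries 1 and 2. The 2 loci listed for a salicylate glucosyltransferase and methyltransferase were tested, and 0 were called or had an unadjusted p under 0.05 with edgeR, DESeq2 or limma. The 2 loci listed as PR1 genes, classical outputs of salicylate signalling, were too low to test: their summed level was 0 to 0.298 CPM in SM and 0.0196 to 0.0956 CPM in SM92.

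**Figure D4:**
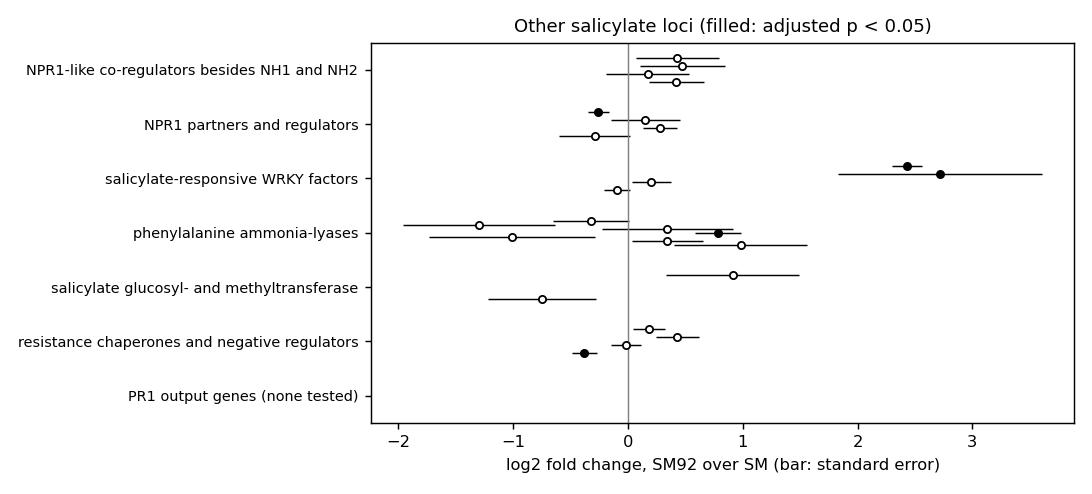
Log2 fold change, SM92 over SM, with its standard error for each tested locus of the 7 companion lists; filled points have an adjusted p under 0.05. The 2 filled points farthest to the right, at 2.43 and 2.72, are in the WRKY list, and the PR1 list has no tested locus.

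None of the 5 regulator genes overlapped another gene model on either strand. The nearest neighbouring model was 165 bases from NH2, 493 bases from EDS1, 2817 bases from PAD4, 3069 bases from ICS and 4662 bases from NH1. Neighbours of NH2 and EDS1 at these distances lie on the opposite strand, which the stranded counting separates.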

How the data were processed

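Stem RNA was sequenced as stranded libraries after removal of ribosomal RNA, per the labels' protocols. Fragments were counted by the authors over whole gene models of MSU release 7 with featureCounts 2.0.0 and strand option 2, per the file headers, and the deposited counts are not normalized. STAR, Trim Galore and DESeq2 are named in the submitters' processing notes, without versions. Gene starts, ends and lengths are other values in the deposited tables, per the file headers.

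Counts were tested with edgeR 4.0.16 in R 4.3.3 (filterByExpr, TMM factors of 0.881 to 1.081, quasi-likelihood F test of line), with Benjamini-Hochberg adjustment over 24892 genes and a threshold of 0.05. All 8 count columns were used by line, since each description names its line's table; the planned infestation contrasts need a label the columns lack. Alternatives used limma 3.58.1 and DESeq2 1.42.0, other scaling, no filter and left-out libraries. The scripts were tested on simulated data with libraries drawn independently, so that test does not cover the close pairs found here. The 5 genes and all lists were chosen with earlier results of these data known. The named genes were the 5, the nearest profile locus of each (up to 2 were allowed), and counts over the lists; the loci named from the lists were chosen after their values were seen. Of the MSU identifiers, 0 matched the 39387 RefSeq genes. Intervals on counts cover counting error only, and no sequences were used here.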

Additional observations from a re-analysis of the deposited data

How the results depend on the processing

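No paired analysis was possible because no replicate number is given for any count column. The direction of the NH2 and PAD4 differences was the same in all 15 alternatives. NH2 was called in 7 of them, with log2 differences of 0.32 to 0.59 and edgeR, limma or DESeq2 adjusted p of 0.00621 to 0.249. It missed the threshold with total counts only (0.32), without a filter on low counts (0.50, edgeR adjusted p 0.0527), and in 2 alternatives chosen after seeing the data: close pairs summed (0.48), and without SM libraries 3 and 4 (0.40). Leaving out 1 library at a time, the log2 difference was 0.43 to 0.59 for NH2, 0.15 to 0.83 for NH1, -0.55 to -0.29 for PAD4, -0.23 to -0.047 for EDS1 and 0.13 to 0.40 for ICS. Leaving out SM library 3 or 4, or SM92 library 3 or 4, raised the adjusted p of NH2 above the threshold, and leaving out SM library 2 brought those of NH1 (0.83) and PAD4 (-0.55) below it. Without SM libraries 3 and 4 the sign turned for NH1 (-0.17), EDS1 (0.11) and ICS (-0.049), and the cause was not tested. That fit may hold only 1 infestation state in SM against both in SM92, since the state of each library is not known. With the close pairs summed, 2591 genes were called, 1206 higher and 1385 lower in SM92, against 9067. These were 9.41% of genes tested against 36.4%, and fewer libraries enter that fit. Leaving out 1 library at a time gave 7366 to 9728 called genes, 3246 to 4420 higher and 4105 to 5308 lower. The lowest count of any of the 5 genes in a library was 574.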
